A study of Homo sapiens with 6 samples.

Results

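The proteasome subunit genes were followed in the accessible chromatin of Nthy-ORI, an immortalised human cell line from normal thyroid epithelium. The members were the RefSeq GRCh38 protein-coding genes named PSMA, PSMB, PSMC, PSMD, PSME or PSMG plus a number, 47 of 19974 protein-coding genes on chromosomes 1 to 22 and X. Open DNA was cut and tagged by the Tn5 transposase (ATAC-seq) in nuclei of 50000 cells per sample. All cells spent 24 h in phenol-red-free medium with charcoal-stripped serum, which removes hormones. They then received the NaOH vehicle (labelled 6 h), 10 nM T3 for 6 h or 10 nM T3 for 24 h, T3 (triiodothyronine) being the active thyroid hormone. Each group had 2 samples, and the labels do not say whether these came from separate cultures. No 24 h vehicle was analysed here, and at 24 h hormone and time therefore cannot be told apart. The study is about how T3 programs chromatin through its receptor TRβ and the remodeller SWI/SNF.

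The proteasome degrades proteins tagged with ubiquitin. Its barrel-shaped core particle (20S) stacks rings of alpha subunits (PSMA genes), which gate the entry, around rings of beta subunits (PSMB genes), which include the proteases. A regulatory particle (19S) of ATPases (PSMC genes) and non-ATPases (PSMD genes) binds, unfolds and feeds in the substrates. PSME genes encode alternative activators and PSMG genes chaperones that assemble the core. Most subunits are made in every cell, while interferon-induced, thymic and testis-specific subunits can replace some of them.

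For each group there was a single list of peaks, those that ranked alike in both replicates, with 7103 peaks in vehicle, 12385 at T3 6 h and 60661 at T3 24 h. The scale of the deposited peak signal is not stated, so signals are given as ranks within a list and never set against those of another list. Sequencing depth is unknown, so absence of a peak does not show closed chromatin. Replicate agreement was unequal: the median distance between replicate summits was 180, 222 and 46 bp over all peaks of the vehicle, 6 h and 24 h lists. The part of this inequality in the results below was not tested. A list gives no replicated value for a condition, so no test between conditions is given. A peak was placed at a gene when its summit, the mean of the replicate summits, lay within 1 kb of either RefSeq boundary of the gene, here called a gene-end peak. Among 10 thyroid follicular markers, 0 had a gene-end peak in vehicle, 1 at 6 h and 6 at 24 h, close to the shares of all protein-coding genes (1.34%, 10.8% and 60.8%). Those at 24 h were PAX8, NKX2-1, FOXE1, HHEX, TSHR and SLC26A4, while those without one included TG, SLC5A5 and DUOX2. Of 5 epithelial markers KRT8, KRT18 and EPCAM had one at 24 h, and KRT19 and CDH1 had none. The strongest such peak of KRT8 and of KRT18 was the same peak, and that of EPCAM ranked at percentile 18.7. At 24 h 2 of 4 leukocyte markers (CD3E and CD14) and 2 of 4 fibroblast markers (COL1A2 and PDGFRB) had a gene-end peak too.

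Proteasome genes had no gene-end peak in vehicle, few after 6 h of T3 and one at nearly every constitutive subunit after 24 h. In vehicle 0 of 47 members had one, which allows a share of up to 6.38% by the rule of 3 counts and 7.55% by the exact 95% interval, where 1.34% of all protein-coding genes had one. At 6 h 9 members had one (19.1%, exact 95% interval 9.15 to 33.3), against 10.8% of all genes. At 24 h 42 members had one (89.4%, interval 76.9 to 96.5), against 60.8% of all genes. These intervals cover counting error only, and genes are not replicates of a condition. The vehicle peak nearest to any member lay 11.7 kb from a boundary of PSMC2, and over the members the nearest vehicle peak lay a median of 266 kb away.

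**Figure D1:**
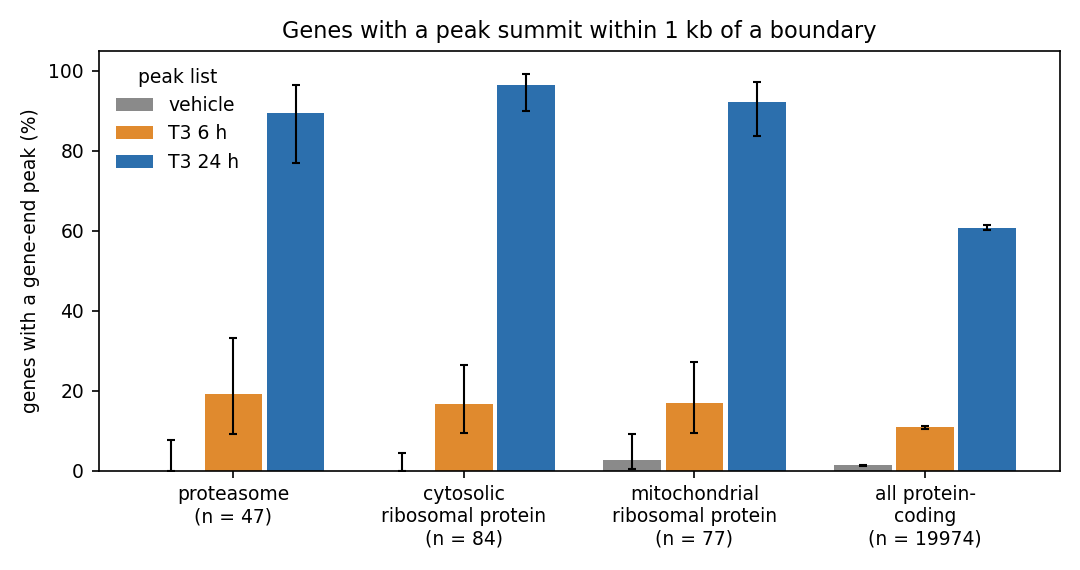
The bars give the percentage of genes with a peak summit within 1 kb of a gene boundary in the vehicle, T3 6 h and T3 24 h lists, for proteasome genes, the ribosomal protein genes of the cytosol and of mitochondria, and all protein-coding genes; error bars are exact 95% binomial intervals. Proteasome genes stood at 0%, 19.1% and 89.4%, and all protein-coding genes at 1.34%, 10.8% and 60.8%.

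In the comparison of T3 6 h with vehicle, 9 members had a gene-end peak in the T3 list and none in vehicle, against 10.3% of all genes. In the comparison of T3 24 h with vehicle, which shares the vehicle list, this held for 42 members, against 59.7% of all genes. As no member had a vehicle peak, these member counts equal the 6 h and 24 h counts above by construction and add no further result. Between the T3 times, 33 members had a peak at 24 h and none at 6 h, against 50.5% of all genes, and 0 showed the converse, against 0.551%. The excess over all genes was not seen in every form of the lists. When each list was limited to its 7103 strongest peaks, 3 members (6.38%) had a 6 h peak against 6.26% of all genes, and 13 members (27.7%) a 24 h peak against 16.6%. Of these 3 and 13 members none had a vehicle peak, and over all genes 5.95% and 16.1% had a T3 peak and no vehicle peak in such lists. Ranked by the first replicate column alone, the equal lists held 5 members at 6 h against 6.94% of all genes, and 14 at 24 h against 16.5%. By the second column they held 5 against 5.47%, and 11 against 16%. With replicate summits at most 100 bp apart, 1 member (2.13%) had a 6 h peak against 3.14% of all genes, and 28 members (59.6%) a 24 h peak against 43.5%. Other groups of genes active in most cells stood near the members at 24 h: 81 of 84 cytosolic and 71 of 77 mitochondrial ribosomal protein genes had a gene-end peak. At 6 h 14 and 13 of them did. No test was made between these groups.

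The alpha subunits had 24 h gene-end peaks at 6 of 8 genes (75%, exact 95% interval 34.9 to 96.8), against 60.8% of all genes. PSMA2 had the strongest, at chr7:42931887-42933139 (hg38, as all coordinates here), with a deposited signal of 16.7 in the first replicate column and 19.2 in the second. Their sum of 35.9 ranked at percentile 99.0 of the 24 h list. PSMA5 followed with 16.1 and 18.7 (percentile 98.7), and PSMA3 with 11.2 and 16.1 (percentile 93.4). Both columns thus placed these 3 genes well above the typical peak of the list. PSMA4 had 9.18 and 7.98, with replicate summits 590 bp apart. PSMA7, whose product PSMA8 replaces in the testis, had the weakest at 6.27 and 5.57 (percentile 45.2). PSMA5 carried a further peak at its other boundary, at chr1:109397736-109398587, which also lies within 1 kb of SORT1. PSMA6 and PSMA8 lacked a gene-end peak in every list.

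The beta subunits had 24 h gene-end peaks at 9 of 11 genes (81.8%, exact 95% interval 48.2 to 97.7), against 60.8% of all genes. PSMB2 was the strongest, at chr1:35641297-35642155, with 11.7 and 16.4 in the replicate columns (percentile 94.3) and summits 39 bp apart. PSMB1 had a pair of peaks. The stronger, with 8.51 and 13.5, lay 943.5 bp from its boundary and within 1 kb of the neighbouring gene TBP, the TATA-binding protein. The weaker, 12.5 bp from that boundary, had 6.89 and 6.51 (percentile 55.6). The catalytic subunits PSMB5, PSMB6 and PSMB7 carry the chymotrypsin-like, caspase-like and trypsin-like activities. PSMB5 had 9.46 and 9.02 (percentile 76.5), and PSMB6 had 11.1 and 10.4 (percentile 84.0). By the strongest peak of each gene PSMB7 was the weakest of the class, with 5.56 and 9.71 (percentile 64.8). The weaker PSMB1 peak, nearest to the boundary of PSMB1, ranked below it. The replicate summits of PSMB7 lay only 2 bp apart. The non-catalytic PSMB3 and PSMB4 had summed signals of 18.7 and 15.6. At constitutive beta subunits the replicate summits lay 2 to 96 bp apart, so that the replicates placed these peaks at nearly the same position.

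In the regulatory particle 20 of 20 genes had a 24 h gene-end peak, against 60.8% of all genes. The exact 95% intervals were 54.1 to 100% for the 6 ATPases and 76.8 to 100% for the 14 non-ATPases. Of the 6 ATPases that unfold substrates, PSMC4 was the strongest, at chr19:39970587-39971559, with 13.6 and 17.9 (percentile 97.1). PSMC3 was the weakest, with 8.18 and 5.78 (percentile 58.8), and its replicate summits lay 621 bp apart. PSMC1, PSMC2 and PSMC6 were close to one another at summed signals of 19.2, 19.4 and 19.4, and PSMC5 had 15.6. Among the 14 non-ATPases the strongest was PSMD14, the deubiquitinase that removes the ubiquitin chain, at chr2:161308093-161308834, with 14.4 and 19.3 (percentile 98.2). PSMD10, an assembly chaperone known as gankyrin, followed with 13.2 and 18.9 and coinciding replicate summits. PSMD2, a scaffold of the base, was the weakest with 6.12 and 8.61 (percentile 62.5). PSMD4, a ubiquitin receptor, had 10.7 and 9.43, and its replicate summits lay 1 bp apart.

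The lid subunits PSMD3, PSMD6, PSMD7, PSMD8, PSMD11, PSMD12 and PSMD13 had summed signals of 15.8 at PSMD13 to 29.7 at PSMD11. PSMD11 was unequal between replicates, with 17.6 in the first column, the highest value of any member there, and 12.02 in the second. PSMD1 had 15.99, and PSMD5 and PSMD9, further assembly chaperones of the base, had 24.1 and 21.8. Of the 14 non-ATPase peaks, 10 had an irreproducible discovery rate (IDR, the deposited measure of disagreement between replicate ranks) of 1e-05, the smallest in a list. So did 19 of all 42 members (45.2%) and 40.7% of all genes with a 24 h gene-end peak. In the other classes the counts were 3 of 6 alpha, 4 of 9 beta, 1 of 6 ATPase, 0 of 4 activator and 1 of 3 assembly chaperone peaks. The non-ATPase class had a median rank percentile of 88.6. The medians of the other classes were 82.8 for alpha, 77.1 for beta, 78.7 for ATPase, 69.4 for activator and 67.3 for assembly chaperone genes. The ranges of all 6 classes overlapped.

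The 4 activator genes all had 24 h peaks (exact 95% interval 39.8 to 100%), against 60.8% of all genes. PSME1 and PSME2, which form the interferon-inducible activator, had 6.02 and 6.34 (percentile 49.1) and 8.68 and 8.82 (percentile 73.4). PSME3, the nuclear activator, had 7.18 and 8.50. PSME4 had 10.99 and 6.18, with replicate summits 803 bp apart, the widest spacing of any member's strongest peak. Among the assembly chaperones PSMG1 was the strongest at 9.78 and 11.2 (percentile 83.1) and PSMG3 the weakest at 4.89 and 5.53 (percentile 32.7). PSMG2 had 5.72 and 10.1, and PSMG4 had no gene-end peak.

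Taken over the 42 members with a 24 h gene-end peak, the strongest peak of a gene had a median rank percentile of 78.7, against 75.7 for all 12137 genes with one. The members' percentiles ran from 32.7 to 99.0, and 0 of 42 lay in the weakest 25% of the list, where 7.72% of all such genes lay. Their replicate summits lay a median of 39.5 bp apart (0 to 803), against 49 bp for all genes, and 64.3% lay within 100 bp, against 69.9%. The signal of the second replicate column was the higher one in 29 members (69.0%), and in 73.2% of all genes. None of these differences was tested.

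**Figure D2:**
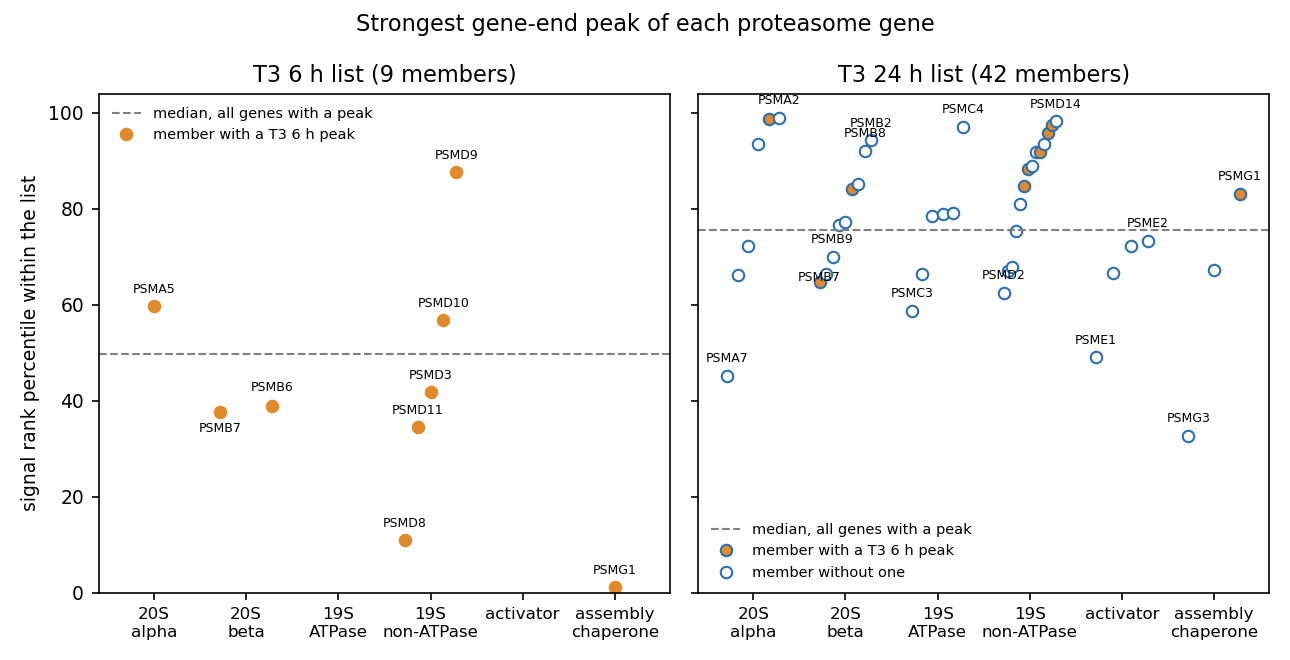
Each point is the strongest gene-end peak of 1 proteasome gene, by role, with its signal rank percentile (100 is the strongest peak) within the T3 6 h list (left) and the T3 24 h list (right). Dashed lines mark the median of all genes with a gene-end peak, 49.7 at 6 h and 75.7 at 24 h; filled points at 24 h are the 9 members that also had a 6 h peak.

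**Figure D3:**
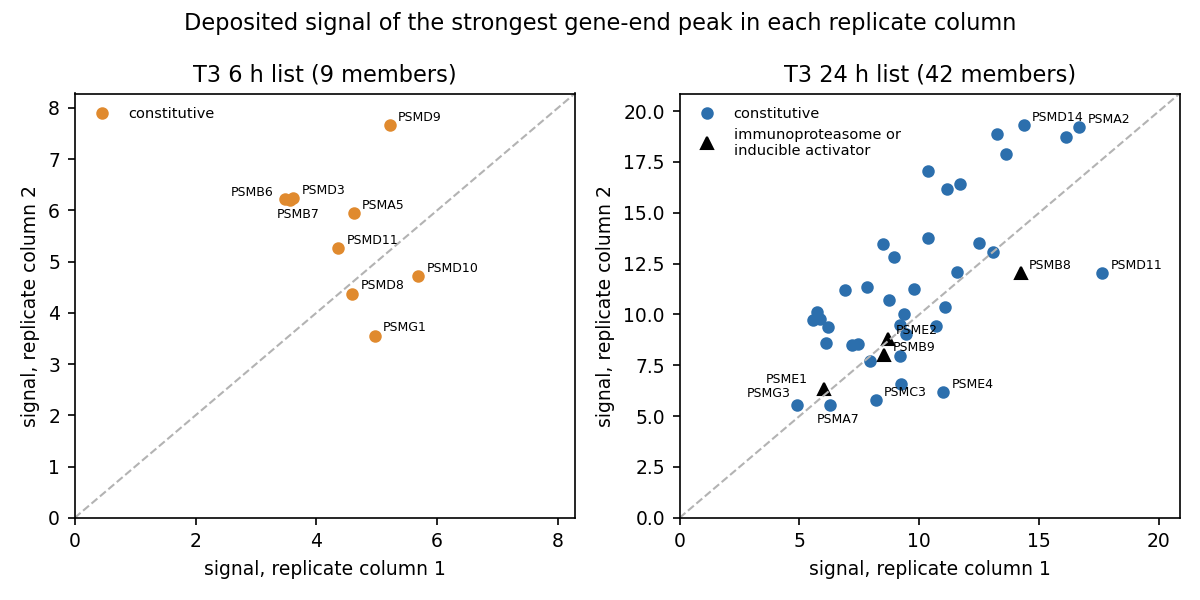
Deposited signal of each member's strongest gene-end peak in the first (x axis) and second (y axis) replicate column, in arbitrary units, for the T3 6 h and T3 24 h lists; the dashed line marks equal values and triangles the immunoproteasome and inducible activator genes. At 24 h PSMD11, PSMB8 and PSME4 lie on the side of the first column, while 29 of 42 members lie on that of the second.

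At 6 h the 9 members with a gene-end peak were PSMA5, the catalytic subunits PSMB6 and PSMB7, the lid subunits PSMD3, PSMD8 and PSMD11, the base chaperones PSMD9 and PSMD10, and the core chaperone PSMG1. None of the 6 ATPases, the 4 activators or the 7 inducible and tissue-restricted genes had one, PSME1 and PSME2 being in both of the last groups. The exact 95% upper limits were 45.9%, 60.2% and 41.0%, against 10.8% of all genes, so these zeros do not set the classes apart. PSMD9 had the strongest 6 h peak, at chr12:121888208-121889237, with 5.21 and 7.67 in the replicate columns (percentile 87.6 of the 6 h list). PSMA5 had 4.62 and 5.94 (percentile 59.7) at its start, and a second peak of 4.17 and 5.79 at the other boundary. PSMD10 had 5.69 and 4.72 (percentile 56.7), at chrX:108091342-108092269. The other 6 lay below the middle of the list. PSMB6 had 3.56 and 6.20, PSMB7 3.49 and 6.22, and PSMD3 3.62 and 6.23, so that for these 3 the second column was well above the first. PSMD11 had 4.36 and 5.26, PSMD8 4.59 and 4.38, and PSMG1 4.96 and 3.56 (percentile 1.14). The median percentile was 38.9 in members and 49.7 in all 2162 genes with a 6 h gene-end peak.

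The replicates placed the 6 h peaks less exactly. Their summits lay 84 bp apart at PSMD10, 111 bp at PSMD3, 281 bp at PSMG1, 285 bp at PSMD8, 309 bp at PSMB6, 406 bp at PSMB7, 474 bp at PSMA5, 504 bp at PSMD9 and 652 bp at PSMD11. The median was 309 bp, against 214 bp for all genes with a 6 h gene-end peak. An IDR of at most 0.01 was held by 2 members, PSMA5 and PSMD9, against 3.59% of all genes, and replicate summits at most 100 bp apart by PSMD10 alone. All 10 of these 6 h peaks overlapped the 24 h peak at the same boundary by at least 96.0% of the shorter peak, and the mean summits of both times lay 1.5 to 199 bp apart. Over all genes, 2052 of the 2162 with a 6 h gene-end peak (94.9%) also had a 24 h one. In 9 of the 10 the replicate summits were nearer to each other at 24 h than at 6 h, the exception being PSMD3 with 121 bp at 24 h and 111 bp at 6 h. Over all genes with a gene-end peak the median distance was also smaller at 24 h, 49 bp against 214 bp at 6 h. At 24 h the 9 members with a 6 h peak had a median percentile of 88.3, and the 33 without one 75.4. Over all genes the same split gave 90.4 and 71.8, a split in the same direction.

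The promoters of the members with a 6 h peak at a start are shown because they are the ones present in both T3 lists. RefSeq promoters (GRCh38.p14) were at hand for 41 members, and PSMA7, PSMB1, PSMB6, PSMB7, PSMD4 and PSMG3 are named only. Each line gives the 250 bases before the RefSeq start, 5′ to 3′ on the gene's strand. Capitals mark matches on either strand to CCAAT (the NF-Y site), TGACNNNGC (the core of the antioxidant response element, bound by NFE2L1 and NFE2L2), CCGGAAG (an ETS site) and GAAA, any 2 bases and GAAA (the core of the interferon-stimulated response element). The windows are at chr1:109426449-109426698, minus strand for PSMA5, chr17:39980557-39980806, plus strand for PSMD3, chr19:38374321-38374570, plus strand for PSMD8 and chr12:121888540-121888789, plus strand for PSMD9. Those of PSMD10, PSMD11 and PSMG1 are at chrX:108091543-108091792, minus strand, at chr17:32444260-32444509, plus strand and at chr21:39183452-39183701, minus strand.
PSMA5: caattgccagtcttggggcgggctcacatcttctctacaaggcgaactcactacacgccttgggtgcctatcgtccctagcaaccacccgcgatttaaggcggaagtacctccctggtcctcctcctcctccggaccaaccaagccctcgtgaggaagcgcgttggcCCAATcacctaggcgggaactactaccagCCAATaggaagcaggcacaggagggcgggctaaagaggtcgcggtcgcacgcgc
PSMD3: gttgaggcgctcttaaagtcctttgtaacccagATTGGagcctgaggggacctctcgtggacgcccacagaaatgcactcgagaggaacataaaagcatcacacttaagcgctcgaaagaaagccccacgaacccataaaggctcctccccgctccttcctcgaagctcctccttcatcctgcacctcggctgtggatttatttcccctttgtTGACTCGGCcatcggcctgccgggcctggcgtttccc
PSMD8: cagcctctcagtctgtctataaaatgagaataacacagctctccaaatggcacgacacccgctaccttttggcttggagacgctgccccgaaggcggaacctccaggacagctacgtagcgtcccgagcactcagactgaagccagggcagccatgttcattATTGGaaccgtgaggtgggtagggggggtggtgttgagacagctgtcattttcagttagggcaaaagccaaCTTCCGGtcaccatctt
PSMD9: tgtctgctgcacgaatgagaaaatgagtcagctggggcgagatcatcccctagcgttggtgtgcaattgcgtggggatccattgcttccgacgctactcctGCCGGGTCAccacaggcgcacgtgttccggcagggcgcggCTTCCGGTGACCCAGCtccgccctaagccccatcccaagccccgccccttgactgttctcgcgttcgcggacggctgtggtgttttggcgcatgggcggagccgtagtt
PSMD10: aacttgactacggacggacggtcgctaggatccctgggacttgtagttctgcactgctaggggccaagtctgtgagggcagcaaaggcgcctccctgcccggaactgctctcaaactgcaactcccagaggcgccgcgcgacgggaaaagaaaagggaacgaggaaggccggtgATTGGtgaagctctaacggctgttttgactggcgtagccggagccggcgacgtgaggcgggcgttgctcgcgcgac
PSMD11: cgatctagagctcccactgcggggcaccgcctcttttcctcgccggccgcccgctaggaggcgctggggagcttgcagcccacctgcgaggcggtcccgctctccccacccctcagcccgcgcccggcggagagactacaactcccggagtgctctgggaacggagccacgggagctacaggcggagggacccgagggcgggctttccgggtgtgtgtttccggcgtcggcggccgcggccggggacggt
PSMG1: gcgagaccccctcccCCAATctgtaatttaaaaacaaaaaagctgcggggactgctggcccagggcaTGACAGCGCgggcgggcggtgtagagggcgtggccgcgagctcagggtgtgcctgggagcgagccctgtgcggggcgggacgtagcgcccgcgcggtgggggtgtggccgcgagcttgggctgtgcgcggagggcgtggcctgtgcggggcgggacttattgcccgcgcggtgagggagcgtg
In the 300-base windows that also include 50 bases after the start, 5 of these 7 genes held CCAAT and 3 held TGACNNNGC. CCGGAAG was held by 2 and the interferon-stimulated response element core by 0. Among the 34 members without a 6 h start peak 15, 12, 12 and 7 held these motifs, in the same order. Over all genes with a promoter entry the shares were 42.1%, 17.9%, 16.5% and 4.16%. These splits were not tested.

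Peaks were also placed by RefSeq starts in place of gene boundaries. Of the 41 members with a promoter entry, 0 had a peak summit within 1 kb of a start in vehicle, against 1.3% of 15812 genes. At 6 h 7 members had one, against 12% of the genes, and at 24 h 38, against 64.9%. This placement was chosen after seeing that some gene boundaries lie far from a RefSeq start. The boundary of PSMA1 lies 123276 bp from its RefSeq start, and the boundary peak there, with 6.18 and 9.39, is shared with PDE3B. At the start of PSMA1 itself the 24 h peak had 15.4 and 15.1 in the replicate columns (percentile 96.4). The RefSeq start of PSMA6 lies 13759 bp inside its boundary and held a 24 h peak at chr14:35291999-35292955 with 11.7 and 15.3 (percentile 93.0). That of PSMG4, 4543 bp inside its boundary, held one with 5.84 and 5.56 (percentile 41.9). With starts and boundaries counted together, 44 of 47 members had a 24 h peak, and the 3 without were PSMA8, PSMB10 and PSMB11. No share of all genes is at hand for this wider placement, so the count has no background. By boundaries alone 60.8% of all genes had a 24 h peak, and by starts alone 64.9% of those with a promoter entry.

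The summit nearest to a start lay a median of 75.8 bp from it in the 38 members, against 110 bp in 10260 genes, and in 33 members (86.8%) within 250 bp, against 77.4%. It lay upstream of the start in 31 members and downstream in 7. All genes leaned upstream in the same way: the median offset was -56.25 bp, against -60.75 bp in members, negative values being upstream. PSMD13 was the farthest upstream, at 634.5 bp, and PSME4 the farthest downstream, at 380.5 bp. Where the strand was known, the strongest 24 h gene-end peak lay at the 5′ boundary in 36 of 36 members, against 93.4% of 10026 genes. Measured from gene boundaries and not from starts, PSMG2 (801 bp), PSMD13 (634.5 bp) and PSMD6 (528.5 bp) lay inside the 1 kb limit at 24 h. PSMB10 (1071.5 bp) lay just outside it. The next member outside, PSMG4, had its nearest summit 4585 bp from a boundary. From a start, the nearest summits of PSMG2, PSMD6 and PSMG4 lay 227.5, 15.5 and 42 bp away. At 6 h a peak with 6.16 and 6.15 lay 1011 bp upstream of a RefSeq start of PSMG2, just outside 1 kb of that start. It lay within 1 kb of a boundary of CEP76.

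**Figure D4:**
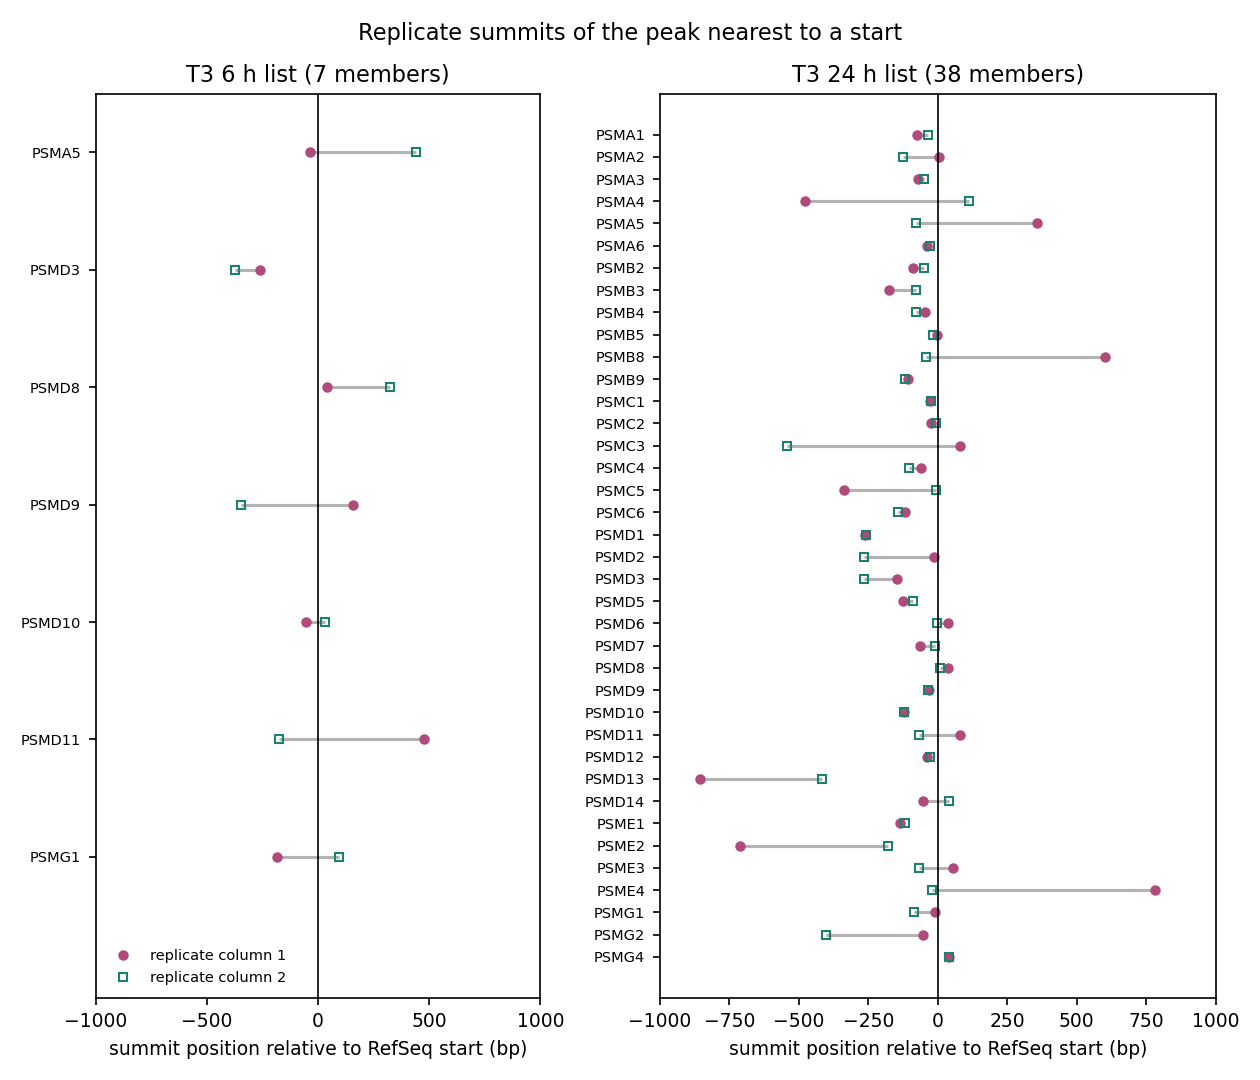
Position of the summit in each replicate column relative to the RefSeq start (0, in bp along the direction of transcription) for the peak nearest to a start, for 7 members at T3 6 h and 38 at T3 24 h; grey lines join the replicates of 1 gene. At 24 h most pairs lie close together just upstream of the start, while PSMA4, PSMA5, PSMB8, PSMC3, PSMD13, PSME2 and PSME4 show wide pairs.

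The constitutive genes were set against those made on demand or in single tissues. At 24 h 38 of 40 constitutive members had a gene-end peak (95%, exact interval 83.1 to 99.4), and 4 of 7 inducible or tissue-restricted ones (57.1%, 18.4 to 90.1), where 60.8% of all genes had one. The share of the 7 was thus near that of all genes, and its interval overlaps that of the constitutive members. With starts counted too, the constitutive count was 40 of 40, a placement for which no share of all genes is at hand. By boundaries, with PSME1 and PSME2 counted as constitutive, the count was 40 of 42, against 2 of 5. In lists of equal length 12 of 40 (30%) and 1 of 7 (14.3%, PSMB8) had one, where 16.6% of all genes did. The immunoproteasome subunits PSMB8, PSMB9 and PSMB10 replace PSMB5, PSMB6 and PSMB7 after interferon and shape the peptides shown to T cells. PSMB8 had a 24 h peak at chr6:32843790-32844990 with 14.2 and 12.02 in the replicate columns (percentile 92.1), above the 9.46 and 9.02 of PSMB5. PSMB9 had one at chr6:32852750-32854659 with 8.55 and 8.02 (percentile 70.0). Both peaks also lie within 1 kb of a boundary of TAP1, the peptide transporter of antigen presentation, whose gene lies between them, so they cannot be given to 1 gene alone. PSMB10 had no gene-end peak, but a 24 h peak inside the gene, at chr16:67934941-67936258, with 8.03 and 9.84 (percentile 74.6) and replicate summits 17 bp apart. Its summit lay 1071.5 bp downstream of the start, and PSMB10 counted as a member with a peak when the limit was 2 kb.

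PSMB11, which replaces PSMB5 in the cortical epithelium of the thymus, had no 24 h peak nearer than 6981 bp, and that peak was the one at the start of PSMB5. PSMA8, the testis subunit that replaces PSMA7, had none at 24 h within 33073 bp of a boundary. With 1 gene each, these values describe PSMA8 and PSMB11 and no class. The replicate summits of PSMB8 lay 644 bp apart. They sat 30 bp from the inner and 42 bp from the outer of its RefSeq starts, which are 632 bp apart, so each replicate column had its summit at another start.

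The promoters of the immunoproteasome genes are shown for their interferon motifs, with capitals as above. They are at chr6:32844680-32844929, minus strand, for the outer start of PSMB8, at chr6:32844048-32844297, minus strand, for its inner start, at chr6:32853942-32854191, plus strand, for PSMB9 and at chr16:67936851-67937100, minus strand, for PSMB10.
PSMB8, outer start: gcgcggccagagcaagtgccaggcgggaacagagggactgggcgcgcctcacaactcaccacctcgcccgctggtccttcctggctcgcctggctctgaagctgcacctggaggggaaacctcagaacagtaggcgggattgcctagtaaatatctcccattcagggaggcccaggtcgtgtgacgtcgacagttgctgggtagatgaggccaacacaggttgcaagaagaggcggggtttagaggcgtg
PSMB8, inner start: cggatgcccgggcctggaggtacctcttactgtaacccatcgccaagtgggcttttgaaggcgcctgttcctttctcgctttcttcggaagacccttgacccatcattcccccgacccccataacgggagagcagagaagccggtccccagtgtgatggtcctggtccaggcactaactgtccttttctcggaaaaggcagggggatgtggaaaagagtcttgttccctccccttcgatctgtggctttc
PSMB9: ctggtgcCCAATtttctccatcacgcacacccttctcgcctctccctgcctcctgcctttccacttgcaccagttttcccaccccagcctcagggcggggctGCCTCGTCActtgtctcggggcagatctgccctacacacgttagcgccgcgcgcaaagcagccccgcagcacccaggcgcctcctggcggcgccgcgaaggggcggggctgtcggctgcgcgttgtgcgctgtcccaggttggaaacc
PSMB10: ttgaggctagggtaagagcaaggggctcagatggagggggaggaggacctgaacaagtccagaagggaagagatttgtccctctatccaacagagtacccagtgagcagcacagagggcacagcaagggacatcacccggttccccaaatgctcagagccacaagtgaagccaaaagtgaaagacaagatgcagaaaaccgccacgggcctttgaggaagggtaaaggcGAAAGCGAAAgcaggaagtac
In PSMB10 the capitals are the interferon-stimulated response element core. In PSMB8 such a core spans the inner start, and the bases after the start are not printed.

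Across the 300-base windows, the interferon-stimulated response element core was found at 7 of 41 members (17.1%), against 4.16% of 15812 genes. It was found at 4 of the 5 interferon-inducible members (PSMB8, PSMB10, PSME1 and PSME2, not PSMB9) and at 3 of the other 36 (PSMA4, PSMB4 and PSMG4). TGACNNNGC was found at 15 members (36.6%), against 17.9% of genes, among them PSMB3, PSMC4, PSMD12 and PSMD1. CCGGAAG was found at 14 members (34.1%), against 16.5%. CCAAT stood at 48.8% against 42.1%, the GC box GGGCGG at 68.3% against 64.2%, and the E-box CACGTG at 7.32% against 10.9%. The nuclear receptor half-site AGGTCA, part of the element that thyroid hormone receptors bind, was found at 6 members (14.6%), against 15.2% of genes. TTCNNNGAA (the gamma-activated sequence) stood at 19.5% against 8.97%, TATAAA at 12.2% against 12.4%, and the palindrome of nuclear respiratory factor 1 at 2.44% against 1.99%. Matches on both strands were counted, motifs may overlap one another, and a match is a string of letters and not a bound site. The member windows had a median GC content of 62%, against 62.3% of 22132 windows of protein-coding genes.

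Some member peaks also lay near another gene. Either boundary of that gene counted, so such a peak is not necessarily at a shared promoter. The strongest 24 h gene-end peak of 13 of 42 members (31.0%) lay within 1 kb of another protein-coding gene as well, against 26.7% of all genes with one. The partners were PDE3B for PSMA1, MRPL32 for PSMA2, SS18L1 for PSMA7, TBP for PSMB1, TAP1 for PSMB8 and PSMB9, PMPCB for PSMC2 and FTSJ3 for PSMC5. For PSMD9 the partner was HPD, for PSMD13 SIRT3, for PSME2 RNF31, for PSME4 ACYP2 and for PSMG1 BRWD1. The family also has 51 RefSeq pseudogenes. In vehicle 1 of them (PSMA6P2) had a peak at a boundary, against 1.28% of 16664 pseudogenes, and at 6 h 0, against 2.52%. At 24 h 2 did (PSMA6P2 and PSMD2P1), against 8.72%. These counts are few. Of 8 long non-coding RNA genes named after members, 0 had a peak at a boundary in vehicle, against 0.853% of 18177 such genes, and 1 (PSMA3-AS1) at 6 h, against 4.42%. At 24 h 4 did (PSMA3-AS1, PSMB8-AS1, PSMD3-AS1 and PSMG3-AS1), against 26.3%, of which the peaks of PSMB8-AS1 and PSMG3-AS1 are those of PSMB8 and PSMG3. The peaks of PSMA3-AS1 at 6 h and 24 h also lie within 1 kb of the protein-coding gene ARID4A.

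Of 38 further genes of the pathway, 0 had a gene-end peak in vehicle, 7 at 6 h and 36 at 24 h (94.7%), read against the same shares of all genes as above. Those with a 6 h peak included UCHL5, a deubiquitinase of the proteasome, with 5.27 and 9.24 in the replicate columns (percentile 93.3), and VCP, the segregase that pulls out ubiquitinated proteins, at percentile 35.7. FAF2, a VCP cofactor, UBQLN1, a shuttle that carries ubiquitinated proteins, RPS27A, a ubiquitin gene, and ZFAND5 also had one, at percentiles of 27.4, 73.4, 75.5 and 43.5. At 24 h the genes of NFE2L1, which induces proteasome genes when the proteasome is inhibited, and of its protease DDI2 had summed signals of 21.7 and 18.97. POMP, which matures the core, had 23.3. The closely related factor NFE2L2 had 8.68, at percentile 11.2. PSMF1, a proteasome inhibitor, lacked a gene-end peak in every list, but had a 24 h peak within 1 kb of a RefSeq start.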

How the data were processed

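ATAC-seq of 6 samples was read from 3 deposited peak lists, 1 per group, in the 20-column layout of IDR output, which keeps peaks that rank alike in 2 replicates. Per the submitters' processing notes, the tools were Bowtie2, MACS2, Trim Galore, DiffBind and CASAVA 1.7, with build hg38; their settings, the Tn5 shift and any duplicate or blacklist filter are not stated. The deposited signal equals the added signals of both replicate columns; its normalisation is not stated, so it was ranked within 1 list only. The authors' lists also hold the scaled IDR score (540 to 1000) and the −log10 of the IDR as deposited, at most 0.05 for every peak. The replicate columns carry no sample number. Depth is not in the lists.

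Peaks were placed with Python 3.11.15, numpy 2.4.6 and pandas 2.3.3, and intervals were taken from scipy 1.17.1 (Clopper-Pearson, counting error only). Genes, promoters and strands came from RefSeq GRCh38.p14. The placing code was tested on simulated data and the overlap code (at least 50% of the shorter peak) checked against bedtools 2.31.1. Where a gene had several gene-end peaks, the strongest by summed signal was used. All members are named. Full values were given by a rule to members with a 6 h peak, the strongest and weakest of each role, inducible and tissue-restricted members, members without a peak and those next to the 1 kb limit; further members are given as values chosen after their values were seen. The members and lists were chosen with earlier results of these data known. Some genes of the pathway and marker lists are counted but not reported by name here.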

Additional observations from a re-analysis of the deposited data

How the results depend on the processing

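No paired analysis was possible because each list merges its replicates and no test between conditions was made. Of 43 alternative values for 10 results, 30 stayed within the set limits of the main value. The medians of replicate summit distance had no alternative value. The limits were wide: the 24 h count of 28 members (59.6%) with replicate summits within 100 bp counted as staying, against 42 (89.4%). The vehicle count was 0 in all 11 alternatives, but most of these could not have raised it. Lists of equal length leave the 7103 vehicle peaks unchanged, and the stricter settings only remove peaks. These values are among the 30 that stayed. The 6 h count of 9 members became 2 with an IDR of at most 0.01, 1 with replicate summits within 100 bp, and 3 in lists of equal length (5 when ranked by either replicate column alone). The 24 h count of 42 became 13 in lists of equal length, 14 when ranked by the first and 11 by the second replicate column. Members with a T3 peak and none in vehicle then numbered 3 at 6 h and 13 at 24 h. These repeat the counts in lists of equal length by construction, as no member had a vehicle peak. The median percentile at 6 h was 60.7 in the second replicate column alone, against 38.9 for the summed signal. The difference between constitutive and inducible or tissue-restricted members at 24 h was 37.9 percentage points. It was 55.2 with PSME1 and PSME2 counted as constitutive and 15.7 in lists of equal length. Lists of equal length hold fewer peaks by construction; for the other changes the cause was not tested. Depth is unknown, so absence from a list sets no limit on accessibility.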
